A study of Arabidopsis thaliana with 5 samples.

Results

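SBPASE (AT3G55800), PRK (AT1G32060) and RCA (AT2G39730) are nuclear genes of photosynthetic carbon fixation, and each was read by 1 probe set of an Affymetrix array, a set of short probes whose signals are summarised to 1 value. The 3 genes were taken by name from the platform's annotation, out of 3592 genes that could be named and 8247 probe sets tested. They were selected on their low values after 30 min of hypoxia relative to 0 min air, so their values in that comparison are given as a description and were not tested. Whole seedlings of Arabidopsis thaliana were sampled, all of ecotype Col-0, 14 days old and raised on vertical agar plates at 22 °C with 16 h of light a day. Hypoxic seedlings were kept in bags under 0.2% oxygen and 99.8% nitrogen for 30, 60 or 240 min, with 1 array for each time (n = 3). Air seedlings were taken at 0 and 240 min, again with 1 array each (n = 2). The labels name no mutant, transgene or drug for any group, and they do not say whether the bags were lit.

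The Calvin cycle fixes carbon dioxide in the chloroplast stroma. Rubisco joins it to ribulose bisphosphate, the products are reduced to triose phosphates, and most of these are turned back into ribulose bisphosphate. SBPASE encodes sedoheptulose-bisphosphatase, which removes a phosphate in this regeneration phase. PRK encodes phosphoribulokinase, which makes ribulose bisphosphate in the last step of it. RCA encodes Rubisco activase, an ATP-dependent enzyme that frees Rubisco's active sites of bound sugar phosphates. In the light, thioredoxins switch SBPASE and PRK on by reducing disulfide bonds, and the transcripts of all these genes are abundant in green tissue.

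The deposited values are on a log2 scale, made by RMA, a method that subtracts background, equalizes the distributions of the arrays and summarises probes. A difference of 1 is 2-fold. Every comparison at a single time set 1 array against 1 array, so it has no replicate error and no p-value. As a measure of scatter, the differences of 240 min air from 0 min air had an SD of 0.22 over all probe sets tested. The array of 240 min hypoxia stood apart most: across probe sets it correlated at r = 0.93 with either air array, the 30 min array at 0.95 and the 60 min array at 0.97 and 0.98, where the air arrays correlated at 0.99 with each other. Probes differ in how well they bind, so the levels of different genes are not compared as amounts of transcript.

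SBPASE read 7.13, 9.10 and 8.13 after 30, 60 and 240 min of hypoxia, against 8.83 and 9.09 in the 0 and 240 min air arrays. The 30 and 240 min hypoxic arrays lay below both air arrays, and the 60 min array lay at the level of 240 min air. The gene differed from 0 min air by −1.70 at 30 min, which is 0.307 of the air level on the linear scale. At 60 min it differed from 0 min air by 0.27, and at 240 min it differed from time-matched air by −0.96, or 0.515 of the air level. The air arrays themselves differed by 0.26 (240 minus 0 min).

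PRK read 8.36, 10.59 and 9.51 after 30, 60 and 240 min of hypoxia, against 10.04 and 10.08 in the 0 and 240 min air arrays. Again the 30 and 240 min hypoxic arrays were below both air arrays, while the 60 min array was above both. The difference from 0 min air was −1.68 at 30 min, which leaves 0.312 of the air level, and 0.55 at 60 min, or 1.46 times the air level. At 240 min PRK differed from time-matched air by −0.57. The air arrays differed by only 0.0376, and each of the hypoxic values lay outside the interval between them. For 1 gene such an interval is not a measure of scatter, and the SD of the air pair over all probe sets was 0.22.

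RCA read 13.27, 14.57 and 14.71 after 30, 60 and 240 min of hypoxia, against 14.35 and 14.47 in the 0 and 240 min air arrays. The 30 min array was again the lowest of the 5, but here both later hypoxic arrays were above both air arrays. The difference from 0 min air was −1.09 at 30 min, or 0.471 of the air level, and 0.22 at 60 min. At 240 min it was 0.24 from time-matched air. RCA lies at the top of the arrays' range, with only 17 probe sets reading higher on the 30 min array and 4 to 6 on the others. When the arrays were quantile-normalized again, its difference was −0.57 at 30 min and 0 at 240 min. Its rank fixed the 0: on either 240 min array 4 probe sets read higher, and this step gives equal ranks equal values. Its probe set has the suffix s_at, which Affymetrix gives to sets that can match more than 1 transcript.

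**Figure D1:**
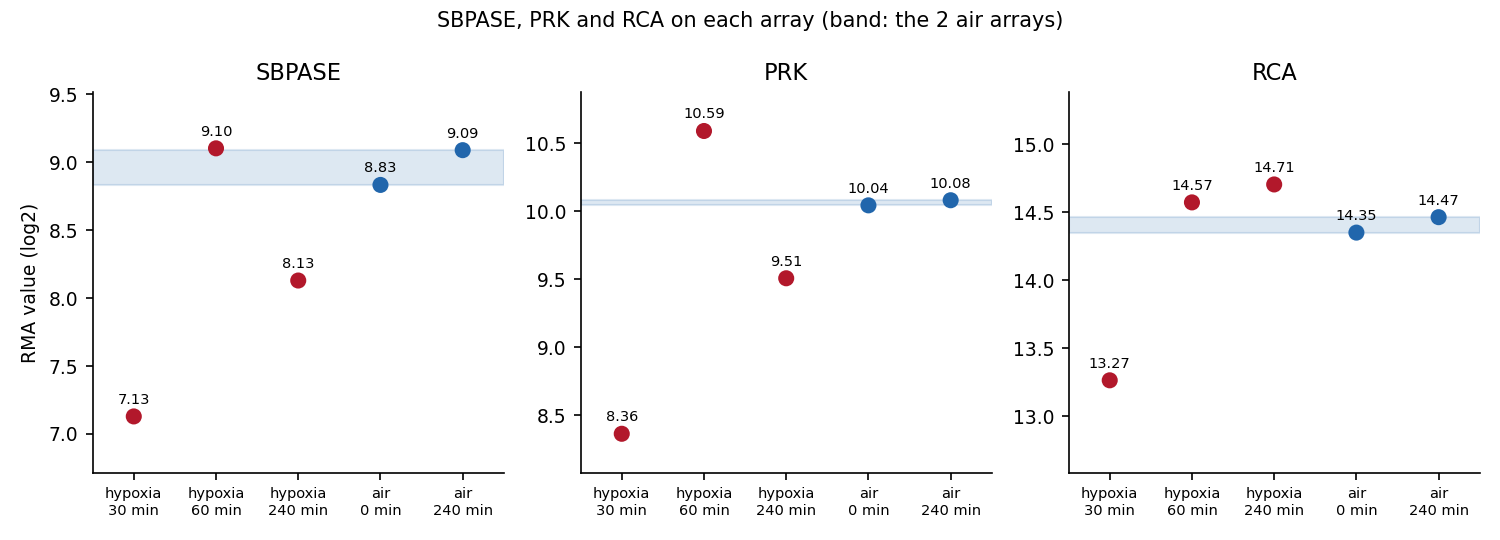
RMA values (log2) of SBPASE, PRK and RCA on each of the 5 arrays, with hypoxia in red, air in blue and a band between the air arrays; each point is 1 array, so there are no error bars, and the panels share the height of their axes but not the position. The 30 min hypoxic array is the lowest in each panel, at 7.13, 8.36 and 13.27, and at 240 min SBPASE and PRK lie below the band while RCA lies above it.

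In the comparison that chose them, 3 of 3 genes were thus lower by 1 or more at 30 min. Of the 4555 probe sets that reached their array's median on at least 1 of the arrays compared, 5.31% were lower by as much (242 probe sets), and of the 822 probe sets with a mean of 8 or more over the arrays, to which the 3 genes belong, the share was 16.5%. None of the 3 was higher by 1 or more, against 5.2% of the 4555. Among all 8247 probe sets, 28 had a lower difference than SBPASE, 32 a lower one than PRK and 192 a lower one than RCA. Over all probe sets 4093 were lower and 3736 higher than 0 min air, with a median difference of 0.

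At 60 min, 0 of the 3 genes was lower by 1 or more, against a background of 2.26%, and 0 was higher by as much, against 2.37%. In air at 240 min, relative to 0 min, 0 of the 3 was lower by 1 or more (background 0.225%) and 0 was higher (background 0.338%). The 60 and 30 min comparisons share the 0 min air array. Between the hypoxic arrays themselves, SBPASE stood 1.97 higher at 60 min than at 30 min, PRK 2.23 higher and RCA 1.31 higher. Relative to 240 min air the 60 min differences were 0.0134 for SBPASE, 0.51 for PRK and 0.11 for RCA, so that the sign held for all 3 but the size for SBPASE rested on the 0 min array.

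The 240 min comparison uses no array of the 30 min comparison. None of the 3 genes was lower by 1 or more (0 of 3, against a background of 3.52%), SBPASE coming nearest at −0.96. None was higher by as much (0 of 3, background 9.68%). SBPASE and PRK differed from RCA in sign: relative to the 60 min array, SBPASE differed by −0.97 and PRK by −1.08, whereas RCA was higher by 0.13. A lower difference was found for 174 of the 8247 probe sets in the case of SBPASE and for 478 in that of PRK, while 6780 had a lower one than RCA. With 1 array on each side, whether the genes differ in their response at 240 min could not be tested.

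**Figure D2:**
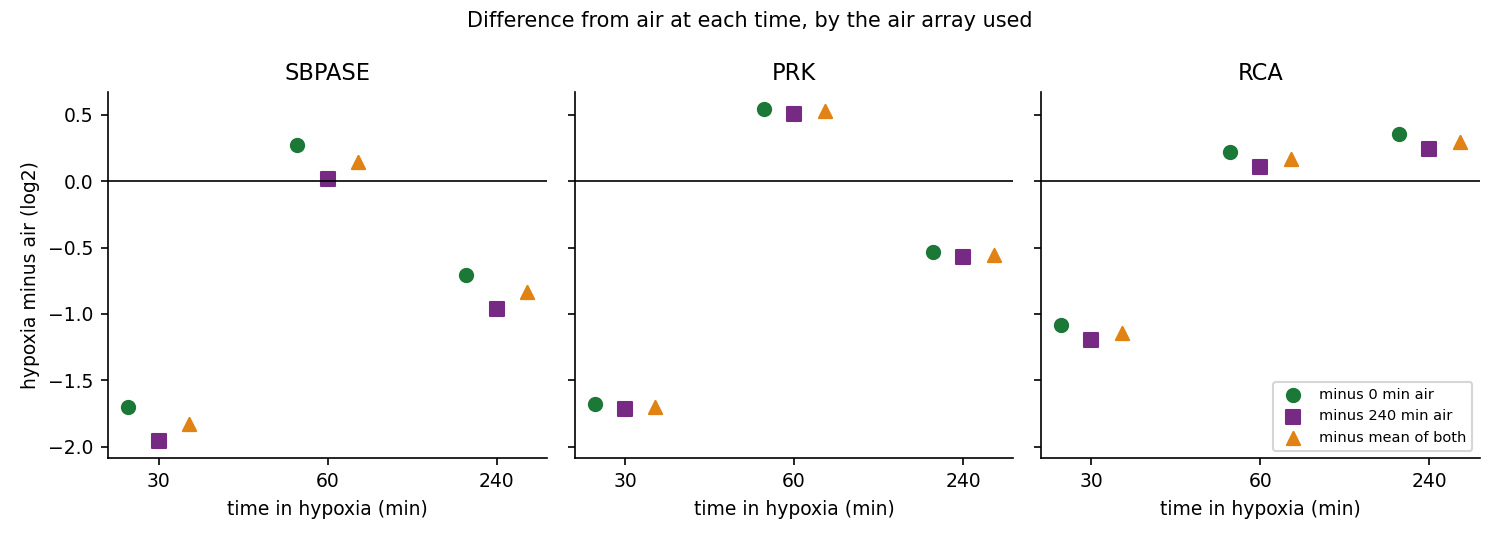
Differences of each hypoxic array from air (log2, vertical axis) for SBPASE, PRK and RCA at 30, 60 and 240 min, computed against 0 min air (circles), 240 min air (squares) and the mean of both (triangles); each point is a difference of single arrays or of 1 array from a mean of 2, with no error bars. The choice of air array moves SBPASE most, from 0.27 to 0.0134 at 60 min, and turns the sign of no point.

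Across the times together, limma (3 hypoxic against 2 air arrays, with the times as replicates) gave SBPASE a difference of −0.84 ± 0.62 (SE), PRK −0.58 ± 0.69 and RCA −0.23 ± 0.50. This fit contains the array that chose the genes, so no p-value is read from it. Hypoxic samples averaged 8.12 ± 0.99 for SBPASE, against 8.96 ± 0.18 in air (SD, n = 3 and 2). For PRK the means were 9.49 ± 1.11 in hypoxia and 10.06 ± 0.0266 in air, and for RCA 14.18 ± 0.80 in hypoxia and 14.41 ± 0.0802 in air. The spread among hypoxic samples, which includes change with time, was larger than the difference of the means for PRK, RCA and SBPASE alike. Leaving out the 60 min hypoxic array moved each of these differences by over 1.5 times. Leaving out the 30 min array did so for SBPASE and PRK, while RCA changed sign. With 0 or 240 min air left out, these differences moved less. They were −0.97 and −0.71 for SBPASE, −0.59 and −0.56 for PRK, and −0.28 and −0.17 for RCA. Without the 30 min array they were −0.34 for SBPASE, −0.0135 for PRK and 0.23 for RCA, without the 60 min array −1.33, −1.13 and −0.42, and without the 240 min hypoxic array RCA was at −0.49. By this fit 0% of the 8247 probe sets passed an adjusted p of 0.05 (161 had an unadjusted p under 0.05).

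A fit without the arrays of the comparison that chose the genes, 60 and 240 min of hypoxia against 240 min air, was added after the values had been seen. Since the genes were chosen with earlier results of these data known, it is not an independent check. By limma, SBPASE differed by −0.47 ± 0.64 (SE, adjusted p = 1), PRK by −0.0323 ± 0.71 (adjusted p = 1) and RCA by 0.17 ± 0.11 (adjusted p = 1). With a single air array this fit was too small to call differences of the size seen here, so its p-values say nothing for or against a difference in these genes. It called 0% of the 8247 probe sets (195 had an unadjusted p under 0.05).

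The measured partners of the 3 genes were few. Of 22 genes listed as Calvin cycle enzymes 3 were measured, and of 25 listed as regulators or Rubisco assembly factors 5 were, among them the 3 genes themselves. Without these, 5 genes remained, of which 0 of 5 passed limma over all arrays in either direction. At 30 min 5 of 5 read below 0 min air with a median of −0.52, but only 1, TRXF2, by 1 or more. Of all 8247 probe sets 4093 read below 0 min air, and 5.31% of those at the level required were lower by 1 or more. At 60 min 4 of 5 read above 0 min air with a median of 0.28 (3831 of 8247 over all probe sets), and at 240 min 3 of 5 read above time-matched air with a median of 0.21 (3387 of 8247). The corresponding medians over all probe sets tested were 0, 0 and −0.022.

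TRXF2 encodes an f-type thioredoxin, of the kind that activates SBPASE and other Calvin cycle enzymes in the light. It read 7.61, 9.56 and 9.44 after 30, 60 and 240 min of hypoxia, against 9.29 and 9.61 in the 0 and 240 min air arrays. Only its 30 min array lay outside the air interval, at −1.67 from 0 min air, close to the differences of SBPASE and PRK. At 240 min its difference from time-matched air was −0.17. AT2G04700, entered in the list as the catalytic subunit of the ferredoxin-thioredoxin reductase that supplies f-type thioredoxins with electrons, read 10.08, 11.0 and 11.11 in hypoxia, against 10.52 and 10.15 in air. Its 30 min array lay below both air arrays by a small margin and its later hypoxic arrays above both. NTRC, an NADPH-dependent thioredoxin reductase of plastids, read 4.79 to 4.93 in hypoxia and 4.99 and 4.93 in air, close to the floor of the scale, where RMA compresses differences.

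On the Rubisco side, AT3G04550, entered in the list as a Rubisco accumulation factor, read 5.73, 6.77 and 7.67 after 30, 60 and 240 min of hypoxia, against 6.69 and 6.75 in the 0 and 240 min air arrays. Its differences were −0.96, 0.081 and 0.92, so that like RCA it was lowest at 30 min and highest at 240 min of hypoxia. AT1G56190, entered as a plastid phosphoglycerate kinase, which acts in the reduction phase, read 6.38, 7.72 and 7.19 in hypoxia, against 6.91 and 6.98 in air. It too was lowest at 30 min and, like PRK, highest at 60 min, with differences of −0.52 and 0.82. Its probe set has the suffix f_at, used for sets that can match a gene family, so related kinase genes may contribute to it.

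Photorespiration, which recycles the product of Rubisco's reaction with oxygen, had 2 of 27 listed genes measured. HPR, a peroxisomal hydroxypyruvate reductase, read 9.69, 12.19 and 10.65 after 30, 60 and 240 min of hypoxia, against 11.15 and 11.48 in the 0 and 240 min air arrays. It had the order of arrays seen for PRK, below both air arrays at 30 and 240 min and above both at 60 min, with differences of −1.46, 1.03 and −0.84. AT1G11860, entered as a subunit of glycine decarboxylase, differed by −1.02 at 30 min, 0.0994 at 60 min and 0.34 at 240 min.

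In the list of photosynthetic light reactions, 8 of 56 genes were measured and 8 of 8 read below 0 min air at 30 min, with a median of −0.80, where 4093 of all 8247 probe sets did and their median was 0. By 1 or more 3 of 8 were lower, against 5.31% of the probe sets at the level required and 16.5% of those with a mean of 8 or more. The 3 with the largest differences were PSAN, a photosystem I subunit, at −1.45, LHB1B2, a light-harvesting protein of photosystem II, at −1.31 and LHCB4.1, a minor antenna protein, at −1.06. At 60 min 5 of 8 were below 0 min air (3914 of 8247 over all probe sets) and the median was −0.0257. PSAN was at −1.43 there, whereas SBPASE, PRK and RCA were above 0. At 240 min 5 of 8 were above time-matched air with a median of 0.0699.

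Starch and sucrose synthesis, which draws on the cycle's products, had 5 of 26 genes measured. At 30 min 4 of 5 read below 0 min air, 0 of 5 by 1 or more (against the same 4093 of 8247 and 5.31%), with a median of −0.17. AT2G35840, entered as a sucrose-phosphate phosphatase, was at −0.35, ATSPS4F, a sucrose-phosphate synthase, at −0.24 and SBE2.2, a starch branching enzyme, at −0.17. Of 24 genes of cytosolic glycolysis 3 were measured, with a median of −0.0197 at 30 min. They were AT5G42740 at −0.29, AT1G20950 at −0.0197 and AT1G12000 at 0. All of these genes except SBE2.2 read at most 6.18 on every array, in the lower part of the scale.

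**Figure D3:**
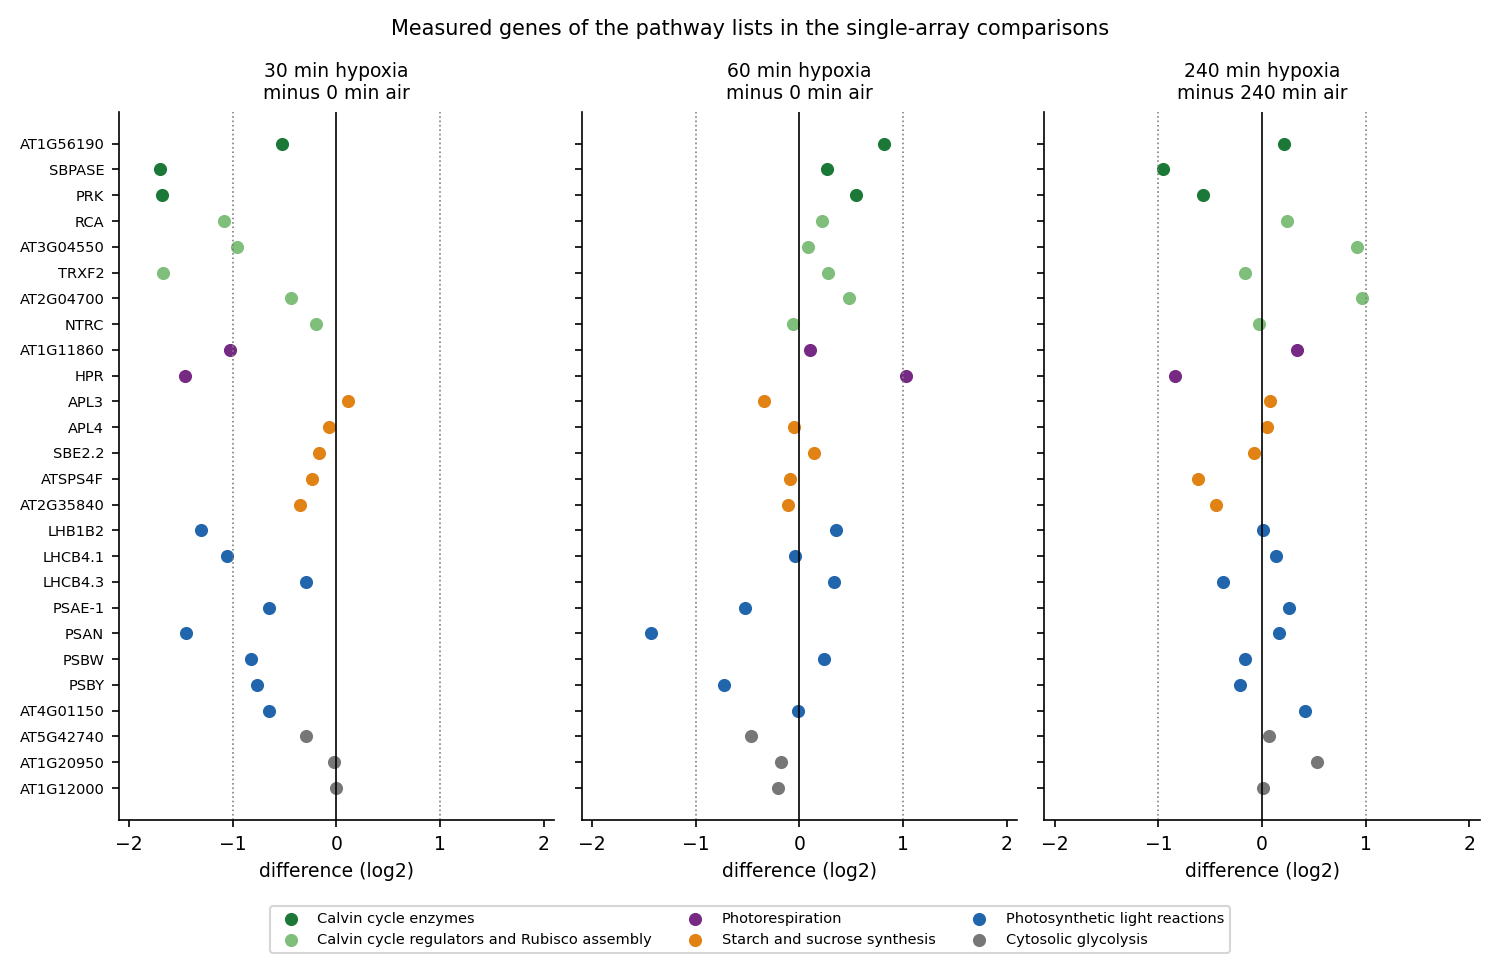
Differences (log2, horizontal axis) of each measured gene of the 6 pathway lists, 1 dot a gene and 1 colour a list, at 30 and 60 min of hypoxia minus 0 min air and at 240 min minus 240 min air; dotted lines mark −1 and 1, and there are no error bars because each difference is between single arrays. At 30 min the Calvin cycle, photorespiration and light reaction genes all lie left of 0, from −1.70 for SBPASE to −0.20 for NTRC, and at 240 min they lie on both sides.

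SBPASE and PRK had similar profiles. After each gene's mean over the 5 arrays was subtracted, they differed by a root mean square of 0.17, against 0.46 for SBPASE and RCA and 0.44 for PRK and RCA. Over all 8247 probe sets, 6.50% read below both air arrays at 30 and 240 min and above both at 60 min. PRK had this order, and so did SBPASE, though at 60 min it was above 240 min air by only 0.0134. On the 30 min array 24.2% were lowest, as all 3 genes were.

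The 10 genes whose profiles lay closest to the mean profile of the 3, out of 3589 other named genes, differed from it by a root mean square of 0.12 to 0.25 over the 5 arrays, where the median gene differed by 0.66. The likeness rests on 5 arrays and mostly on the 30 min one. The closest was AT1G54500, which read 9.11, 10.68 and 10.14 after 30, 60 and 240 min of hypoxia, against 10.59 and 10.45 in the 0 and 240 min air arrays. It was followed by AT2G29310, LHB1B2, AT2G26500, AT1G79510 and AT4G28080, then TRXF2, ALDH11A3, TAPX and AT2G04690. LHB1B2 and TRXF2 also stand in the lists above. ALDH11A3, a non-phosphorylating glyceraldehyde-3-phosphate dehydrogenase, read 7.20, 8.90 and 7.79 in hypoxia, against 8.59 and 8.36 in air. TAPX, the thylakoid ascorbate peroxidase that removes hydrogen peroxide, read 5.62, 6.87 and 6.58 in hypoxia, against 6.85 and 6.62 in air. The differences of these 10 genes at 30 min ran from −1.67 (TRXF2) to −0.87 (AT2G04690).

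**Figure D4:**
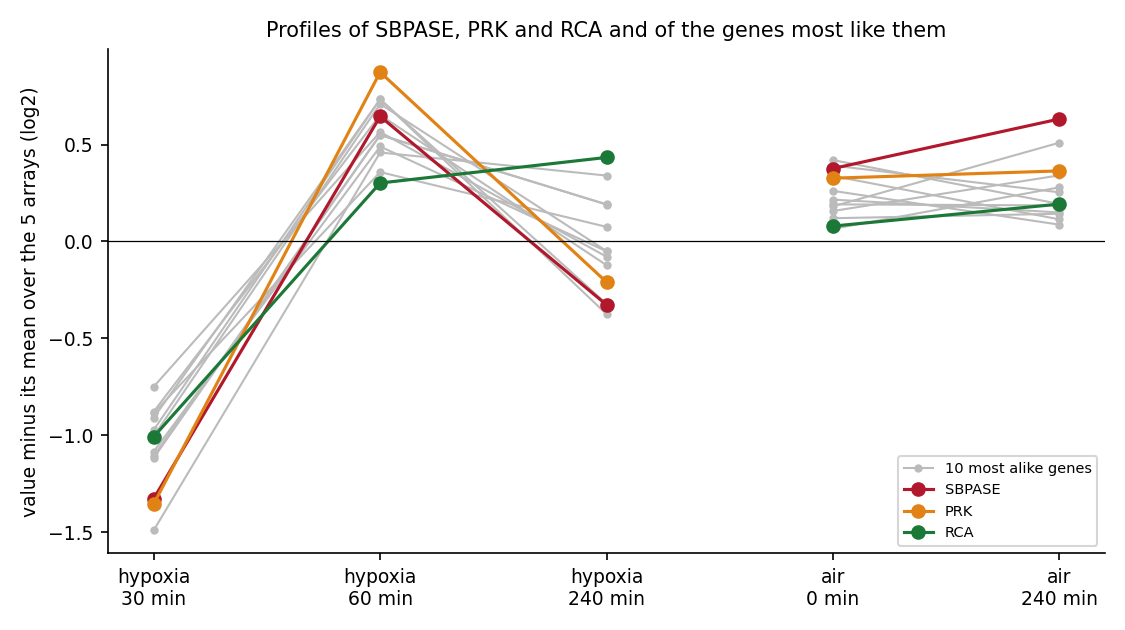
Values of SBPASE, PRK and RCA (coloured) and of the 10 named genes most like their mean (grey), each minus its own mean over the 5 arrays (log2, vertical axis), by array; the arrays are set at equal distances, not to the scale of time, and each point is 1 array. All 13 genes are lowest on the 30 min hypoxic array, and at 240 min of hypoxia RCA lies above SBPASE and PRK, which are among the lowest.

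Other features of the arrays moved with these values, and their part in them was not tested. Of 51 listed root markers 2 were measured. BGLU21, a beta-glucosidase, read 9.32, 7.05 and 8.58 after 30, 60 and 240 min of hypoxia, against 7.71 and 7.59 in the 0 and 240 min air arrays, and AT5G66390, entered as a peroxidase, read 5.29, 4.99 and 5.57, against 4.67 and 4.96. The log2 of their summed linear values was 7.36 to 9.40 in hypoxia, highest at 30 min and lowest at 60 min, against 7.88 and 7.80 in air. This sum mostly follows BGLU21, which reads higher, whereas AT5G66390 at 60 min was above both air arrays. The log2 sum of the 8 light reaction genes, the shoot markers, was 15.43 to 16.41 in hypoxia, lowest at 30 min, against 16.34 and 16.35 in air. RMA gives no probe set a value of 0. In whole seedlings, fewer green cells and less of a transcript per cell cannot be told apart.

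On the 30 min array the GAPDH and ubiquitin control probe sets were above 0 min air by 1.51 to 1.78, whereas the control for actin differed by 0.18. The 9 bacterial and phage spike-in probe sets (BioB, BioC, BioDn and CreX) had a median difference of 0.54 there, −0.20 at 60 min and −0.099 at 240 min. When each array was shifted to a common spike-in median, a setting chosen after the values had been seen, the median of all probe sets moved to −0.54 at 30 min, and SBPASE stood at −2.24, PRK at −2.22 and RCA at −1.62. In the same setting the medians of all probe sets at 60 and 240 min were 0.29 and 0.37, SBPASE stood at 0.56 and −0.57, PRK at 0.84 and −0.19, and RCA at 0.51 and 0.63. The shift used each array's own median of the 9 values, not the median differences above. These medians were 8.69, 7.86 and 8.05 after 30, 60 and 240 min of hypoxia, and 8.16 and 8.43 in air. At 240 min the 9 differences ran from −0.39 to 0.0325, and the shift matched the most extreme of them. On the array of 240 min hypoxia the 3′ GAPDH control exceeded the 5′ one by 1.97, against −0.23 to 0.69 on the other arrays. For ubiquitin the array stood apart less, with 2.39 there against 1.67 to 2.15 on the others. Of 4697 probe sets that read under 5.5 on every other array, called dim here, 303 were higher on this array by 1 or more. Their median difference from 240 min air was −0.0106. Chosen as low on the other arrays, they had little room to read lower here. Among all probe sets at the level required, 9.68% were higher by 1 or more. Among the dim probe sets within 50 numbers of SBPASE, PRK or RCA the counts were 0 of 15, 1 of 21 and 0 of 30, with median differences of −0.0206, 0 and −0.0537.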

How the data were processed

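Biotin-labelled cRNA from the 5 samples had been hybridised to 1-colour Affymetrix arrays. The authors deposited 1 table of log2 values made by RMA, per the submitters' processing notes, with the software and version not stated there. Equalizing the arrays by RMA can compress differences near both ends of the scale. After removal of 50 control probe sets, 8247 were analysed as deposited. The platform's annotation gave 3794 of them 1 gene and 70 several, and 4383 are unnamed here. Of those with 1 gene, 3784 matched a locus of the TAIR10.1 RefSeq table, used for names only. No coordinates are given, as no build is stated for the probes.

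Hypoxia and air were compared with limma 3.58.1 (R 4.3.3), with eBayes moderation and Benjamini-Hochberg adjustment over all probe sets. The fits were tried on simulated data with known shifts, put into probe sets drawn at random, each with its own spread. With all arrays, 90% of 100 shifts of 2 were recovered and 96% of 100 shifts of 4, with 9 false calls. With 60 and 240 min of hypoxia against 240 min air, 0% and 64% were recovered. These rates are not those for SBPASE, PRK and RCA, whose SEs with all arrays were 0.62, 0.69 and 0.50. Recovery at the spread of these genes was not measured. Nothing but the design text, which calls the samples independent, says how they were replicated, so p-values measure the spread between these arrays, whose number limits the precision. Comparisons at single times are differences without a test.

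The genes, the pathway lists and the rule for named genes were chosen with earlier results of these data known. The rule took the 3 genes, all measured Calvin cycle genes, the 3 of each other list with the largest differences at 30 min, and the 10 genes of most similar profile. A gene with several probe sets entered through the brightest. HPR, BGLU21 and others are called by the symbols of the RefSeq table. Alternatives were further normalizations, other air arrays, array weights, a filter on dim probe sets and leaving out each array.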

Additional observations from a re-analysis of the deposited data

Results flagged for a closer look

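Differences of opposite sign at successive times, each larger than the SD of the air pair, drew attention to all 3 genes. With 1 array on each side, the change between times was not tested, and the 30 and 60 min comparisons share the 0 min air array. SBPASE was at −1.70 at 30 min, 0.27 at 60 min and −0.96 at 240 min relative to its air array. PRK was at −1.68, 0.55 and −0.57 at the same times. RCA was at −1.09 at 30 min and 0.22 at 60 min, the second value being barely above that SD of 0.22. Against 240 min air the 60 min differences of SBPASE and RCA were 0.0134 and 0.11, under the SD.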

How the results depend on the processing

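In hypoxia against air, 0 probe sets passed an adjusted p of 0.05 by limma in any fit that kept both air arrays, or 0.10 with all arrays. At an unadjusted p under 0.05, limma counted 161 of 8247 probe sets in the main fit. The count was 87 of 4277 with the filter on dim probe sets and 410 of 8247 without the 60 min array. The median difference of the 3 genes over all times, −0.58, ran from −1.13 to −0.0135 with 1 array left out. It was −1.13 without the 60 min hypoxic array and −0.0135 without the 30 min array, where SBPASE was at −0.34 and RCA at 0.23, and it was −0.0323 at 60 and 240 min against 240 min air. After the spike-in shift, a setting chosen after seeing the data, the median of the 3 genes was −2.22 at 30 min, 0.56 at 60 min, −0.19 at 240 min and −0.16 in air, and the probe sets higher and lower by 1 or more turned from 237 and 242 to 113 and 687 at 30 min, from 106 and 101 to 212 and 45 at 60 min, from 454 and 165 to 717 and 80 at 240 min, and from 15 and 10 to 6 and 36 in air. At 240 min the spike-in shift matched the most extreme of the 9 spike-in differences, not their median. The count of 1 other Calvin cycle gene lower by 1 or more at 30 min was 2 after quantile normalization again and 3 at a difference of 0.5, which by construction counts more. Otherwise the cause of these shifts was not tested. The differences of the 3 genes at 30 min, each of 1 or more as deposited, changed sign under no alternative run, but RCA moved to −0.57 on quantile normalization again. All these alternatives reuse the 30 min array on which the genes were chosen, so they are no independent check of its low values. Sign changes were not checked for single genes of the pathway lists. The smaller difference of RCA over all times, −0.23, did change sign without the 30 min array. No paired analysis was possible because the replicate numbers only name the arrays and the groups share a single time.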
